A study of Homo sapiens with 18 samples.

Results

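The transcripts described here are those of the EGF receptor family and its ligands in human keratinocytes exposed to type I interferon, in lines labelled SP100 wild type and SP100 knockout. The set held 9 genes, chosen by name from the 16472 genes of the deposited table. EGFR (ENSG00000146648), ERBB2 (ENSG00000141736) and ERBB3 (ENSG00000065361) are receptors, and AREG (ENSG00000109321), EREG (ENSG00000124882), HBEGF (ENSG00000113070), TGFA (ENSG00000163235), EPGN (ENSG00000182585) and BTC (ENSG00000174808) are ligands. All 9 had a row in the table.

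The cells were NIKS, a spontaneously immortalized line of human epidermal keratinocytes. There were 6 groups of 3 libraries of polyA RNA: SP100 wild-type (WT) cells that were untreated, and WT cells exposed for 12 h or 48 h to human interferon alpha 2a at 25 ng/mL, and the same 3 conditions in SP100 knockout (KO) cells. SP100 is a component of PML nuclear bodies. Its transcript had means of 30.0 ± 2.0, 159 ± 11 and 127 ± 3.8 RPKM (reads scaled by transcript length and library size) at 0, 12 and 48 h in WT, beside 15.1 ± 0.88, 89.1 ± 3.6 and 59.8 ± 2.5 RPKM in KO (SD, n = 3), so KO libraries were lower at each time, were not at 0, and were also higher at 12 h than untreated. Each genotype was represented by 1 line, so genotype and line cannot be told apart, and untreated cells were sampled at 0 h alone, so that duration of interferon and of culture cannot be told apart. All 6 groups grew in medium that held 10 ng/mL epidermal growth factor, with serum, insulin, hydrocortisone and cholera toxin, over lethally irradiated J2/3T3 mouse fibroblasts. An EGFR ligand was thus present in every group, including the untreated ones. The study's text calls the 3 libraries of a group biological replicates, and the p-values below measure the spread between them.

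The EGF receptor family comprises EGFR, ERBB2, ERBB3 and ERBB4, membrane receptors that signal as dimers. EGFR binds ligands and has a kinase, ERBB2 has a kinase but no known soluble ligand and serves as a partner, and ERBB3 binds neuregulins and has little kinase activity of its own. AREG, EREG, HBEGF, TGFA, EPGN and BTC are made as membrane-anchored precursors that proteases such as ADAM17 release. In epidermis this autocrine loop is known to sustain keratinocyte proliferation, migration and wound repair, and the ligand genes are themselves targets of EGFR signalling.

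EPGN, EREG, AREG and BTC lie next to each other on chromosome 4 in RefSeq's annotation (GRCh38.p14), with no other protein-coding gene between them, and their transcripts moved in different directions here. The 250 bases before each of these 4 genes' start sites are therefore shown, from RefSeq on GRCh38.p14, 5′ to 3′ on the strand of the gene. Capitals mark a cAMP response element, TGACGTCA, which was found in AREG only. The windows are chr4:74308220-74308469 (plus strand) for EPGN, chr4:74364895-74365144 (plus) for EREG, chr4:74444886-74445135 (plus) for AREG and chr4:74794524-74794773 (minus) for BTC.
EPGN: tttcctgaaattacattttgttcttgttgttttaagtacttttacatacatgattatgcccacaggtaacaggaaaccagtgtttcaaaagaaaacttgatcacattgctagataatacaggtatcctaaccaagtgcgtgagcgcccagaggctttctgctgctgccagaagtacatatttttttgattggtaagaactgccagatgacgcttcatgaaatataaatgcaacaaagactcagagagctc
EREG: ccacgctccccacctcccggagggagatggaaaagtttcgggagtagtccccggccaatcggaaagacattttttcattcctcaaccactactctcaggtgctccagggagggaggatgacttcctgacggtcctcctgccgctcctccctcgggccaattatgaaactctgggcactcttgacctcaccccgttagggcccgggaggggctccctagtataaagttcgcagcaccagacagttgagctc
AREG: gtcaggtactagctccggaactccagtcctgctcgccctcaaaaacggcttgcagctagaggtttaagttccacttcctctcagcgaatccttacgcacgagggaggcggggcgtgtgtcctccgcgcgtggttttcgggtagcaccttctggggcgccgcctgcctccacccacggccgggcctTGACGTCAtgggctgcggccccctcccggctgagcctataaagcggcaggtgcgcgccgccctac
BTC: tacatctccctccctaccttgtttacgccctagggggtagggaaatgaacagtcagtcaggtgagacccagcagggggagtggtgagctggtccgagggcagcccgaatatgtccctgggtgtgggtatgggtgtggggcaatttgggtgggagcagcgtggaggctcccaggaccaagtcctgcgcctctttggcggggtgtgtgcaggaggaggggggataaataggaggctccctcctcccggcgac

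RefSeq's promoter table held windows for 8 of the 9 genes, 10 windows in all. The cAMP response element began at position -65 from the AREG start and was present in 1.65% of the 35116 promoter windows of the same length. This motif was added to the search after the sequences had been seen. The interferon-stimulated response element, searched on both strands as GAAA, any 2 bases and GAAA, was found in 0 of the 8 genes' windows and in 3.02% of all windows. The AP-1 motif TGANTCA, searched on both strands, occurred in 2 of the 8 genes. It lay at positions -232 and -136 of the second EGFR window and at -222 of the ERBB2 window, and the first EGFR window held 0. Of all windows 6.57% held it, a share per window that is not matched to a count of genes, as some genes had several windows. These are descriptions of letters in these windows.

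Levels are given as RPKM as the authors deposited them. Because RPKM is per length, levels of different genes can be set side by side. Among the receptors EGFR was the most abundant, with a mean of 47.6 RPKM over the 18 libraries, followed by ERBB2 at 21.97 RPKM and ERBB3 at 6.07 RPKM. Among the ligands AREG stood far above the rest at 550.4 RPKM, rank 177 of the 16472 genes. TGFA followed at 40.5 RPKM, then HBEGF at 7.68, EPGN at 7.51, EREG at 2.00 and BTC at 0.271 RPKM. AREG made up 92.7% ± 0.55 (SD, n = 3) of the summed RPKM of the 6 ligands in untreated WT cells and 84.0% ± 0.53 (SD, n = 3) in KO cells after 12 h of interferon, its highest and lowest group means.

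**Figure D1:**
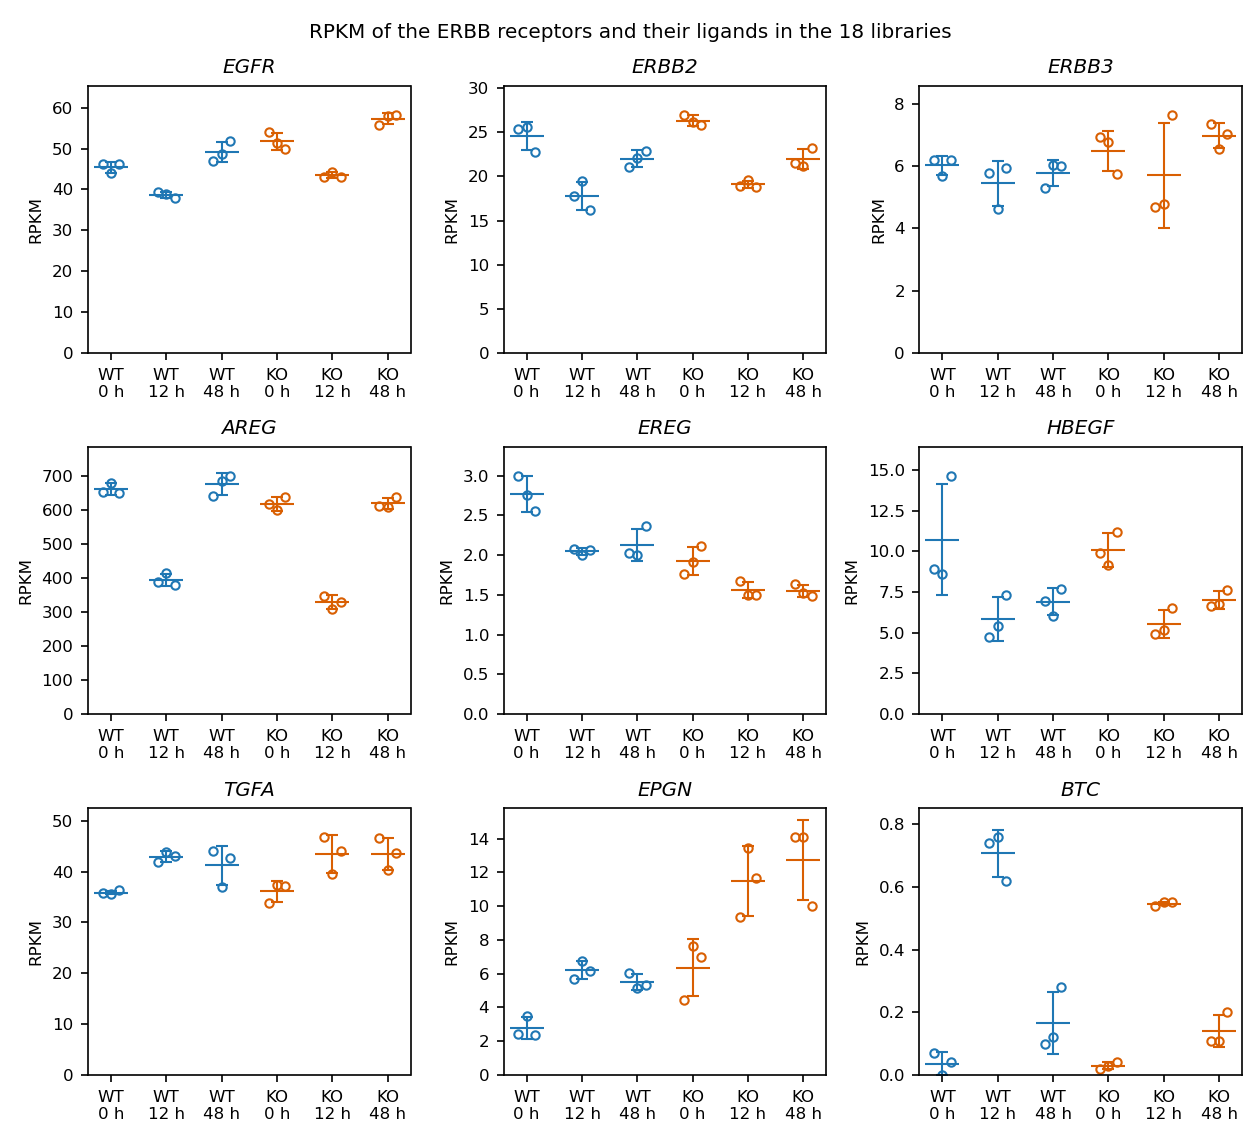
RPKM of the 3 receptors and 6 ligands (y axis, linear, from 0) in the 6 groups (x axis). Circles are single libraries, horizontal bars are group means and whiskers are 1 SD (n = 3). AREG falls to between 308.6 and 414.83 RPKM at 12 h in both genotypes and is at least 608.59 RPKM in every library at 48 h, while EPGN is higher in KO than in WT at each time.

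Differences were tested with limma on log2(RPKM + 1), which understates the change of genes with low levels. The fit covered the 13280 genes with at least 1 RPKM in at least 3 libraries, and a difference was called at a Benjamini-Hochberg adjusted p of 0.05 over all of them. Of the 9 genes, 8 passed this filter, and BTC did not. After 12 h of interferon 7 of the 8 were called in WT (2 higher and 5 lower) and 6 of 8 in KO (2 higher and 4 lower). Among all genes tested, 44.9% were called in WT (15.1% higher, 29.8% lower) and 48.8% in KO (16.0% higher, 32.8% lower), so many genes of the table moved at this time. The members' median change at 12 h was -0.27 in WT and -0.22 in KO, beside -0.09 in both genotypes for all genes tested. The study's samples are bulk RNA, in which fewer cells of a type and less RNA per cell cannot be told apart.

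**Figure D2:**
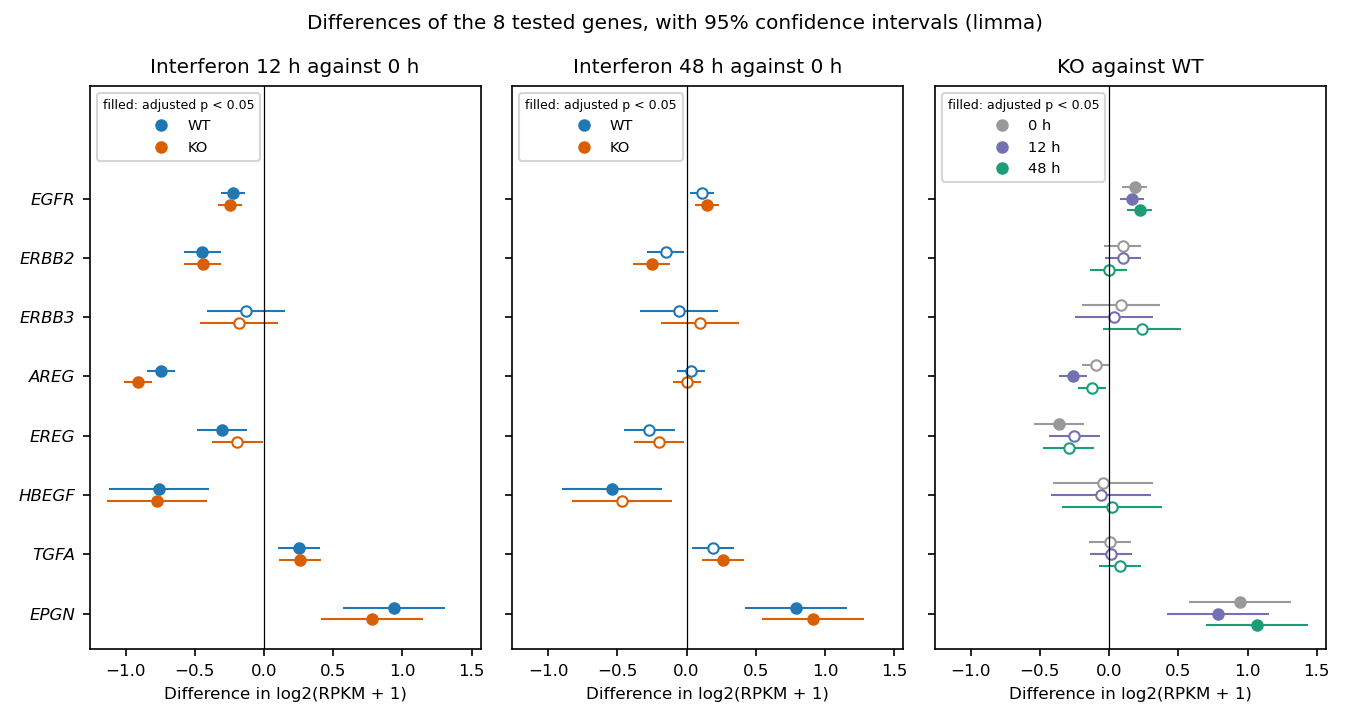
Differences in log2(RPKM + 1) with 95% confidence intervals (limma) for the 8 tested genes: 12 h against untreated, 48 h against untreated, and KO against WT at each time. Filled points passed an adjusted p of 0.05. AREG, HBEGF and ERBB2 lie left of 0 and EPGN and TGFA right of 0 at 12 h in both genotypes.

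Of the receptors, EGFR transcripts fell at 12 h and had returned by 48 h. The untreated WT libraries had 46.25, 43.91 and 46.14 RPKM, those at 12 h had 39.31, 38.88 and 37.89, and those at 48 h had 46.9, 48.73 and 51.75. In KO cells the values were 53.94, 51.35 and 49.94 RPKM untreated, 43.09, 44.35 and 43.03 at 12 h, and 55.86, 57.9 and 58.31 at 48 h. Every 12 h library was below every untreated library of its genotype, and every 48 h library was above them. The mean at 12 h was 85.2% of the untreated mean in WT and 84.0% in KO (log2 change -0.23 and -0.24, SE 0.041, limma adjusted p = 3.76e-04 and 1.55e-04). Rescaling the libraries so that the median gene did not change left -0.13 and -0.14, both still called (adjusted p = 0.0134 and 0.00902). From 12 h to 48 h the log2 rise of EGFR was 0.34 in WT and 0.39 in KO (adjusted p = 1.64e-05 and 2.62e-06).

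ERBB2, the partner receptor, fell further than EGFR at 12 h in its point estimate. It measured 25.41, 25.63 and 22.73 RPKM in untreated WT cells, 17.76, 19.44 and 16.19 at 12 h, and 21.02, 22.15 and 22.92 at 48 h. The KO libraries gave 27.01, 26.14 and 25.87 RPKM untreated, 18.92, 19.6 and 18.76 at 12 h, and 21.51, 21.22 and 23.23 at 48 h. The untreated and 12 h ranges did not overlap in either genotype. The 12 h means were 72.4% and 72.5% of the untreated means in WT and KO (log2 change -0.45 and -0.44, SE 0.063, limma adjusted p = 3.26e-05 and 2.74e-05). At 48 h ERBB2 had come part of the way back: the log2 difference from untreated was -0.15 in WT (95% interval -0.28 to -0.02, adjusted p = 0.13) and -0.25 in KO (adjusted p = 0.0137).

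ERBB3, the neuregulin receptor, was not called in any comparison. Its libraries ranged from 4.61 to 7.65 RPKM, and both extremes came from 12 h groups. KO libraries at 12 h measured 4.67, 4.78 and 7.65 RPKM, so replicate 3 stood well above the others. The 12 h change was -0.13 in WT (95% interval -0.41 to 0.15) and -0.18 in KO (95% interval -0.46 to 0.10), with limma adjusted p of 0.454 and 0.276. Without KO 12 h replicate 3 the KO change was -0.38 with an adjusted p of 0.00666, so that library decided the call. These intervals include changes of the size seen for EGFR.

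The ratio of EGFR to ERBB2 transcripts had higher means after interferon in both genotypes, a difference that was not tested. In WT the ratio of EGFR to ERBB2 RPKM had a mean of 1.85 ± 0.16 before treatment, 2.18 ± 0.17 after 12 h and 2.23 ± 0.029 after 48 h, each SD with n = 3. In KO it was 1.96 ± 0.033, 2.28 ± 0.015 and 2.61 ± 0.11 (SD, n = 3), with no overlap between the 3 times. In WT the 12 h range, 2.00 to 2.34, included 2.03, the highest untreated ratio.

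AREG, an EGFR ligand that is abundant in cultured keratinocytes, had the largest change of the 9 genes in RPKM. The libraries of untreated WT cells had 655.2, 681.62 and 649.42 RPKM, those at 12 h had 388.46, 414.83 and 380.84, and those at 48 h had 641.21, 686.83 and 702. KO cells had 619.18, 599.36 and 639.82 RPKM untreated, 348.72, 308.6 and 330.98 at 12 h, and 612.52, 608.59 and 639.34 at 48 h. The 12 h libraries were far below all others, and the 48 h libraries overlapped the untreated ones. AREG at 12 h stood at 59.6% of its untreated mean in WT and 53.2% in KO (log2 change -0.75 and -0.91, SE 0.047, limma adjusted p = 4.17e-09 and 2.73e-10). At 48 h the log2 difference from untreated was 0.03 in WT (95% interval -0.07 to 0.13) and 0.00 in KO (95% interval -0.10 to 0.10), neither called. The RefSeq entry for AREG lists AREGB, a near-identical copy in the authors' genome build, as a synonym, so the AREG level is uncertain to the extent that reads were split with that copy.

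HBEGF, the heparin-binding ligand, also fell at 12 h. It had 8.93, 8.59 and 14.66 RPKM in untreated WT cells, 4.73, 5.44 and 7.32 at 12 h, and 6.96, 6.03 and 7.71 at 48 h. In KO cells it had 9.89, 9.16 and 11.22 RPKM untreated, 4.9, 5.16 and 6.5 at 12 h, and 6.65, 6.74 and 7.64 at 48 h. Untreated libraries were above all treated libraries of their genotype at both times. Replicate 3 was the highest library in 6 of the 6 groups, which held for 21 of the 13280 tested genes. With any replicate number counted, 54 of the 13280 genes had the same number highest in all groups. The 12 h means were 54.4% and 54.7% of untreated (log2 change -0.76 and -0.77, SE 0.17, limma adjusted p = 0.00186 and 0.00148). At 48 h the change was -0.54 in WT (adjusted p = 0.0490) and -0.47 in KO (95% interval -0.83 to -0.11, adjusted p = 0.0861). The WT call at 48 h was lost when any 1 of 13 libraries was left out, each of the 3 at 48 h included, with adjusted p of 0.0525 to 0.211, and the change without untreated WT replicate 3, the 14.66 RPKM library, was -0.31. Leaving out that same library brought the KO change at 48 h to an adjusted p of 0.0284.

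EREG was the least abundant of the ligands that passed the filter, and in WT it fell at 12 h. Untreated WT libraries measured 3, 2.75 and 2.55 RPKM, the 12 h libraries 2.08, 2 and 2.06, and the 48 h libraries 2.02, 2 and 2.36. In KO cells it measured 1.76, 1.91 and 2.11 RPKM untreated, 1.68, 1.5 and 1.5 at 12 h, and 1.64, 1.52 and 1.49 at 48 h. Untreated libraries were the highest of each genotype, without overlap. The log2 change at 12 h was -0.30 in WT (SE 0.086, limma adjusted p = 0.00885) and -0.19 in KO (95% interval -0.37 to -0.01, adjusted p = 0.0757). At 48 h it was -0.27 in WT (95% interval -0.45 to -0.09, adjusted p = 0.0509) and -0.20 in KO (95% interval -0.38 to -0.02, adjusted p = 0.152), neither called. Without WT 48 h replicate 3, the WT difference at 48 h had an adjusted p of 0.0425.

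TGFA, the second most abundant ligand, moved the other way. The untreated WT libraries held a narrow range of 35.73, 35.61 and 36.33 RPKM, followed by 41.87, 43.9 and 43.11 at 12 h and 44.1, 36.89 and 42.73 at 48 h. KO libraries held 33.81, 37.34 and 37.26 RPKM untreated, 46.89, 39.55 and 44.02 at 12 h, and 46.63, 40.32 and 43.61 at 48 h. All treated libraries exceeded the untreated libraries of their genotype. TGFA rose at 12 h, with a log2 change of 0.25 in WT and 0.26 in KO (SE 0.071, limma adjusted p = 0.00895 and 0.00699), to 119.7% and 120.3% of untreated. At 48 h the difference from untreated was 0.19 in WT (95% interval 0.04 to 0.34, adjusted p = 0.0917) and 0.26 in KO (adjusted p = 0.0234). The KO call at 48 h was lost without KO untreated replicate 1, KO 48 h replicate 1 or KO 48 h replicate 3 (adjusted p 0.0595 to 0.111), and without WT 48 h replicate 2 the WT difference was called (adjusted p = 0.0228). With AREG lower and TGFA higher, the ratio of AREG to TGFA RPKM went from 18.5 ± 0.64 to 9.19 ± 0.32 in WT at 12 h, and from 17.2 ± 1.1 to 7.59 ± 0.19 among KO libraries (SD, n = 3).

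EPGN, which encodes epigen, a low-affinity EGFR ligand, rose with interferon and stayed raised at 48 h. It had 2.45, 3.51 and 2.39 RPKM in untreated WT cells, 5.69, 6.76 and 6.16 at 12 h, and 6.03, 5.14 and 5.32 at 48 h. The KO libraries had 4.45, 7.65 and 6.99 RPKM untreated, 9.37, 13.46 and 11.66 at 12 h, and 14.12, 14.11 and 10.0 at 48 h. No treated library overlapped the untreated libraries of its genotype. EPGN at 12 h was 2.23-fold its untreated mean in WT and 1.81-fold in KO (log2 change 0.94 and 0.78, SE 0.17, limma adjusted p = 4.12e-04 and 0.00162). The 48 h differences were 0.79 and 0.91 (adjusted p = 0.00614 and 0.00200).

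BTC, encoding betacellulin, was detected at a low level that was highest at 12 h. In WT cells it had 0.07, 0 and 0.04 RPKM untreated, 0.74, 0.76 and 0.62 at 12 h, and 0.1, 0.12 and 0.28 at 48 h. In KO cells it had 0.02, 0.03 and 0.04 RPKM untreated, 0.54, 0.55 and 0.55 at 12 h, and 0.11, 0.11 and 0.2 at 48 h. The 12 h libraries of both genotypes were above all others. BTC reached 1 RPKM in 0 libraries and was therefore not among the genes tested. In the fit with no filter on low values the log2 change at 12 h was 0.72 in WT and 0.59 in KO (SE 0.086, limma adjusted p = 8.17e-06 and 4.85e-05), and the 48 h differences of 0.17 and 0.15 were not called (adjusted p = 0.256 and 0.342). At these levels log2(RPKM + 1) understates the ratio, and 1 untreated WT library was listed at 0, so no fold is given.

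By 48 h fewer of the 8 tested genes differed from untreated. In WT 1 was higher and 1 lower, EPGN and HBEGF, where 12.8% of all genes tested were called (6.52% higher, 6.30% lower). In KO 3 were higher, EGFR, TGFA and EPGN, and 1 was lower, ERBB2, where 13.3% of all genes were called (5.90% higher, 7.42% lower). The KO calls of EGFR and ERBB2 at 48 h also depended on single libraries: EGFR was lost without KO untreated replicate 2 or 3 or KO 48 h replicate 2 or 3 (adjusted p 0.0808 to 0.0995), and ERBB2 without KO untreated replicate 1 or KO 48 h replicate 2 (adjusted p 0.0584 and 0.0591). Between 12 h and 48 h, EGFR, ERBB2 and AREG rose in both genotypes and 0 of the 8 fell, where 35.9% of all genes in WT and 41.7% in KO were called (24.6% and 27.7% higher). The log2 rise of AREG was 0.78 in WT and 0.91 in KO (limma adjusted p = 9.93e-09 and 1.23e-09). The KO rise of ERBB2, 0.19 (adjusted p = 0.0211), was 0.11 and not called after median-of-ratios scaling (adjusted p = 0.199), and it was lost without KO 12 h replicate 1 or 3 or KO 48 h replicate 3 (adjusted p 0.0554 to 0.0929).

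KO and WT cells were compared at each time. In untreated cells 2 of the 8 tested genes were higher in KO, EGFR and EPGN, and 1 was lower, EREG, beside 4.89% of all genes tested (2.82% higher, 2.07% lower). At 12 h EGFR and EPGN were higher and AREG was lower, beside 3.62% of all genes (1.60% higher, 2.02% lower). At 48 h EGFR and EPGN were higher, beside 4.19% of all genes (2.03% higher, 2.16% lower). EGFR and EPGN were thus the members called at all 3 times. When each comparison was fitted with its own 6 libraries only, the EPGN calls at 12 h and 48 h held and the other 6 of these calls did not (adjusted p 0.0747 to 0.126). How many calls of all tested genes were lost in that fit was not counted.

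EPGN showed the widest genotype difference of the 8. Its KO mean was 2.29 times the WT mean in untreated cells, 1.85 times at 12 h and 2.32 times at 48 h (log2 difference 0.95, 0.78 and 1.07, SE 0.17, limma adjusted p = 0.00375, 0.0170 and 0.00141). KO libraries were above WT libraries at every time, without overlap. The untreated KO libraries, 4.45 to 7.65 RPKM, overlapped the range of the interferon-treated WT libraries, 5.14 to 6.76 RPKM. The 12 h call was lost without WT 12 h replicate 1 or 3 or KO 12 h replicate 2 or 3 (adjusted p 0.0589 to 0.0800).

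EGFR was higher in KO by 0.18 in untreated cells, 0.16 at 12 h and 0.22 at 48 h on the log2 scale (SE 0.041, limma adjusted p = 0.0162, 0.0362 and 0.00470), a KO mean of 113.9%, 112.4% and 116.8% of the WT mean. The ranges of the genotypes did not overlap at any time. The 12 h call did not hold without any 1 of the 6 libraries of that comparison (adjusted p 0.0714 to 0.139), nor did the untreated call without WT replicate 2 or KO replicate 1 (adjusted p 0.0849 and 0.0888). ERBB2 differed by 0.10 in untreated cells (95% interval -0.04 to 0.23), by 0.10 at 12 h (-0.03 to 0.23) and by 0.00 at 48 h (-0.14 to 0.13), with 0 of the 3 called.

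Between the genotypes AREG was called at 12 h alone and EREG in untreated cells alone, both lower in KO. Every KO library had less AREG and less EREG than every WT library of the same time. How many of all tested genes had ranges without overlap was not counted, for this or the other comparisons. For AREG the log2 difference was -0.10 in untreated cells (95% interval -0.20 to 0.00, limma adjusted p = 0.302), -0.26 at 12 h (adjusted p = 0.00416) and -0.12 at 48 h (95% interval -0.23 to -0.02, adjusted p = 0.181). For EREG it was -0.36 untreated (adjusted p = 0.0213), -0.25 at 12 h (95% interval -0.43 to -0.07, adjusted p = 0.134) and -0.29 at 48 h (95% interval -0.47 to -0.11, adjusted p = 0.0722). The untreated EREG call was lost without WT untreated replicate 1 or 2 or KO untreated replicate 1 or 2 (adjusted p 0.0678 to 0.0923). HBEGF and TGFA had genotype differences within 0.08 of 0 at all 3 times, and at 12 h the 95% intervals were -0.42 to 0.30 for HBEGF and -0.14 to 0.17 for TGFA.

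EREG and EPGN, neighbours on chromosome 4, varied inversely across the libraries. Pearson's r of log2(RPKM + 1) between them was -0.895 over the 18 libraries, which share 6 groups, and it is given as a description. The ratio of EREG to EPGN RPKM was 1.02 ± 0.22 in untreated WT, 0.316 ± 0.074 in untreated KO, 0.332 ± 0.035 in WT at 12 h and 0.124 ± 0.022 in KO at 48 h (SD, n = 3). The other pairs with a high r included ERBB2 and AREG at 0.778 and ERBB2 and TGFA at -0.700.

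**Figure D3:**
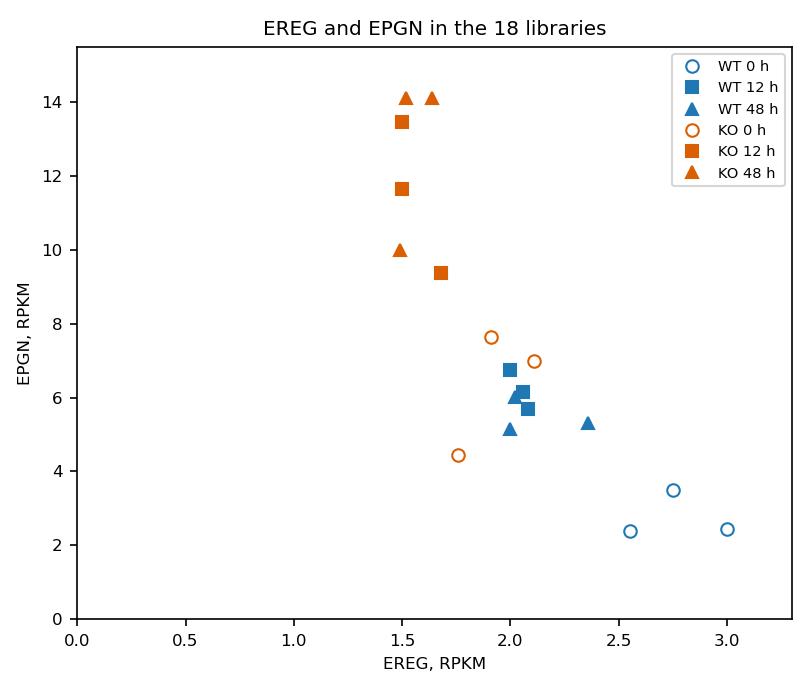
EPGN (y axis, RPKM) against EREG (x axis, RPKM) in the 18 libraries, both axes linear from 0. Each point is 1 library, WT in blue and KO in orange, with circles for untreated, squares for 12 h and triangles for 48 h. Untreated WT libraries sit lowest in EPGN, 2.39 to 3.51 RPKM, and highest in EREG, 2.55 to 3 RPKM, and the treated KO libraries at the opposite end.

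Whether interferon acted differently in the genotypes was tested as an interaction. None of the 8 tested genes was called at 12 h or 48 h by limma, the only tool run. Among all genes 0.0753% were called at 12 h and 0.0828% at 48 h. At an unadjusted limma p under 0.05 there was 1 of the 8 at 12 h and 0 at 48 h. That limit was also met by 764 of all 13280 tested genes at 12 h and by 826 at 48 h. The 1 member was AREG, whose change at 12 h was 0.16 lower in KO than in WT (log2 difference -0.16, 95% interval -0.31 to -0.02, limma adjusted p = 0.793). The EPGN interaction was -0.16 at 12 h (95% interval -0.68 to 0.36) and 0.12 at 48 h (-0.40 to 0.64).

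The order of the 6 groups differed by gene, and neighbours in it often overlapped. For EGFR it ran from KO 48 h (57.4 ± 1.3 RPKM) through untreated KO (51.7 ± 2.0), WT 48 h (49.1 ± 2.4), untreated WT (45.4 ± 1.3) and KO 12 h (43.5 ± 0.75) to WT 12 h (38.7 ± 0.73), each SD with n = 3. Untreated KO overlapped WT 48 h, and untreated WT overlapped KO 12 h. For AREG the order was WT 48 h (677 ± 32 RPKM), untreated WT (662 ± 17), KO 48 h (620 ± 17), untreated KO (619 ± 20), WT 12 h (395 ± 18) and KO 12 h (329 ± 20), and neighbours overlapped between WT 48 h and untreated WT and between KO 48 h and untreated KO. For EPGN it was KO 48 h (12.7 ± 2.4 RPKM), KO 12 h (11.5 ± 2.0), untreated KO (6.36 ± 1.7), WT 12 h (6.203 ± 0.54), WT 48 h (5.50 ± 0.47) and untreated WT (2.78 ± 0.63), with no overlap between KO 12 h and untreated KO or between WT 48 h and untreated WT. All neighbours of ERBB3 and of TGFA in this order overlapped.

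Genes whose log2 values across the 18 libraries were most like each member's were sought among 12483 genes. AREG was most like DUSP10 (Pearson's r 0.989), a gene with no symbol here, ENSG00000251095 (0.988), and MRFAP1L1 (0.983). EGFR was most like TCEAL9 (0.974), ASNS (0.959) and ACSL1 (0.956), and ERBB2 like INPP4A (0.957), CCNI (0.955) and PREPL (0.954). EREG was most like TREM2 (0.929), IRS1 (0.921) and MCAM (0.916), and EPGN like SNRK (0.916), CA9 (0.908) and PCDH1 (0.905). HBEGF was most like PPP1R15A (0.913), ZSWIM6 (0.908) and BCL10 (0.908), and TGFA like SEMA3A (0.889), SLC16A1 (0.867) and SLC5A6 (0.864). ERBB3 had the lowest values, with ENSG00000215271 (0.785), PPP1CB-DT (0.779) and SHPRH (0.774). The libraries share groups, so these values describe shared group means as much as anything within a group.

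The rest of the pathway was read from a list of 70 genes, of which 63 were tested. The 12 h calls in WT were 10 higher and 29 lower (61.9%, beside 44.9% of all tested genes), and those in KO 11 higher and 23 lower (54.0%, beside 48.8%). This split depends on the scaling: after median-of-ratios scaling it was 16 and 21 in WT and 21 and 19 in KO. How many of all tested genes were called after that scaling was not counted, here or for the lists below. The list's median change was -0.14 in WT and -0.11 in KO, against -0.09 for all genes. At 48 h the counts were 7 higher and 6 lower in WT, against 6 and 9 in KO (20.6% and 23.8%, beside 12.8% and 13.3% of all tested genes). Between KO and WT, 1 was higher and 2 were lower in untreated cells, 2 higher and 1 lower at 12 h, and 3 higher and 3 lower at 48 h. These shares of 4.76%, 4.76% and 9.52% stood beside 4.89%, 3.62% and 4.19% of all tested genes. The interactions called 0 of 63 at both times.

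**Figure D4:**
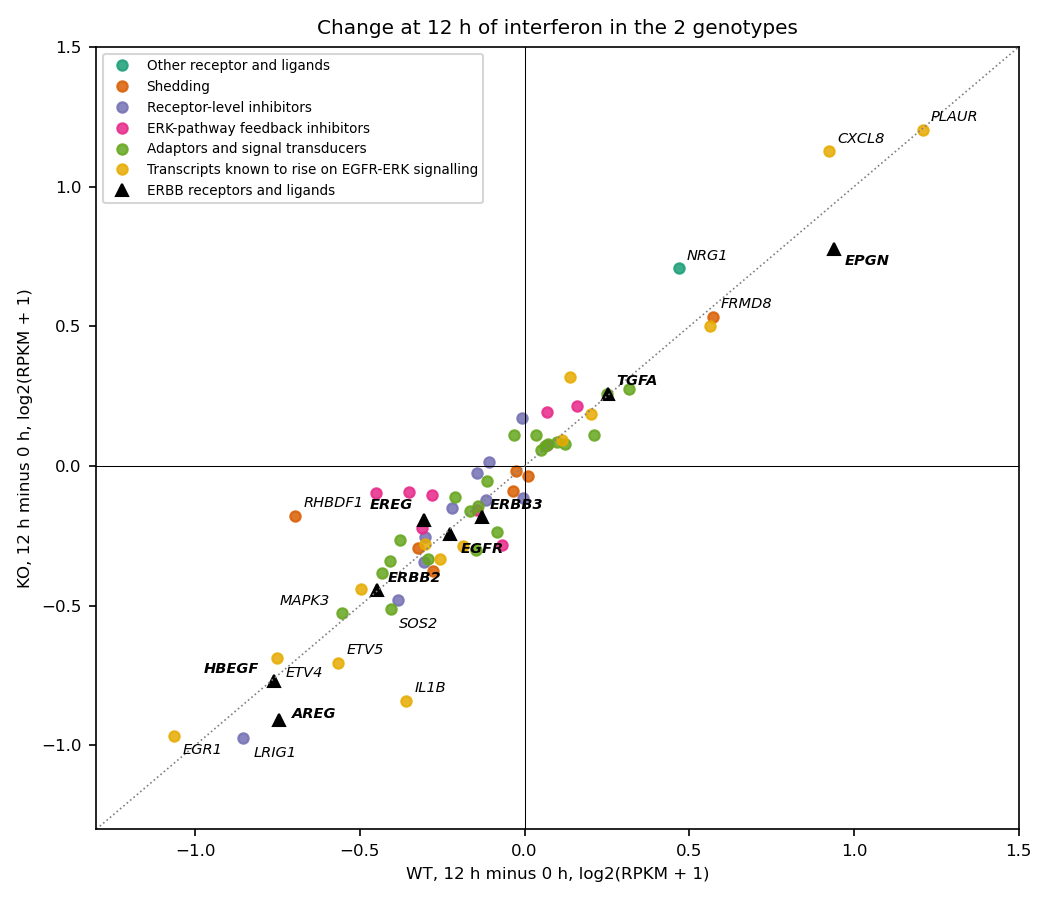
Change from untreated to 12 h of interferon in WT (x axis) and KO (y axis), in log2(RPKM + 1), for 63 pathway genes (circles, coloured by role) and the 8 tested receptors and ligands (triangles). The dotted line marks equal change. PLAUR (1.21 and 1.20) lies at the upper right and EGR1 (-1.06 and -0.97) at the lower left, and RHBDF1 and IL1B lie away from the line.

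Among the other receptor and ligands 1 of 6 was tested. NRG1, a ligand of ERBB3, rose at 12 h, from 21.6 ± 2.8 to 30.0 ± 0.52 RPKM in WT and from 17.1 ± 0.99 to 28.6 ± 0.82 RPKM in KO (SD, n = 3, log2 change 0.47 and 0.71, limma adjusted p = 9.33e-04 and 1.81e-05). EGF itself had group means of 0.04 to 0.32 RPKM and did not pass the filter. NRG2 and NRG4 did not pass it either. No row of the deposited table was matched by symbol to ERBB4 or NRG3, so these were not analysed. Of 7 tested shedding genes 1 was higher and 3 were lower in WT at 12 h, against 1 and 2 in KO. These shares of 57.1% and 42.9% were near the 44.9% and 48.8% of all tested genes. Median-of-ratios scaling left 1 higher and 2 lower in WT. FRMD8, which stabilises the iRhom-ADAM17 complex, rose by 0.57 and 0.53 (limma adjusted p = 2.87e-05 and 4.27e-05). RHBDF1, encoding iRhom1, went from 13.4 ± 1.6 to 7.88 ± 0.28 RPKM in WT (log2 change -0.70, adjusted p = 0.00141) and from 11.2 ± 2.0 to 9.90 ± 2.5 in KO (-0.18, adjusted p = 0.352, and -0.36 with adjusted p = 0.0452 without KO 12 h replicate 2). The difference between these changes was not called (interaction 0.52, adjusted p = 0.800).

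Of the 10 receptor-level inhibitors, 0 were higher and 5 lower in WT at 12 h, against 1 and 5 in KO. These 5 and 6 of 10 were near the 44.9% and 48.8% of all tested genes. LRIG1, which promotes degradation of ERBB receptors, fell from 3.51 ± 0.28 to 1.51 ± 0.39 RPKM in WT and from 3.38 ± 0.89 to 1.24 ± 0.52 in KO (SD, n = 3, log2 change -0.86 and -0.97, limma adjusted p = 0.00140 and 4.21e-04). CBL, a ubiquitin ligase of EGFR, was higher in KO at 48 h by 0.28 (adjusted p = 0.00322). ERRFI1, which binds and inhibits the EGFR kinase, was lower in KO by 0.22 in untreated cells and by 0.23 at 48 h (log2 difference -0.22 and -0.23, adjusted p = 0.0243 and 0.0204), and each ERRFI1 call was lost without any of 4 libraries of its comparison (untreated WT or KO replicate 1 or 3, adjusted p 0.0734 to 0.0958; WT 48 h replicate 2 or 3 or KO 48 h replicate 1 or 2, adjusted p 0.0752 to 0.1004). Of the 9 ERK-pathway feedback inhibitors 0 were higher and 4 lower in WT at 12 h, against 1 and 1 in KO, shares of 44.4% and 22.2%. Median-of-ratios scaling gave 2 higher with 3 lower for WT cells and 3 higher with 0 lower for KO cells, so the direction of this list depends on the scaling. SPRED2, a Sprouty-related inhibitor of RAS-ERK signalling, was higher in KO at 12 h by 0.26 (adjusted p = 0.0139), and this call was lost without WT or KO 12 h replicate 1 or 3 (adjusted p 0.0509 to 0.0787). DUSP4, a MAP kinase phosphatase, was higher in KO at 48 h by 0.26 (adjusted p = 0.0103), but not without WT 48 h replicate 2 (adjusted p = 0.0612).

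Of 22 adaptors and signal transducers 3 were higher and 9 lower in WT at 12 h, against 2 and 7 in KO. These shares of 54.5% and 40.9% were near the 44.9% and 48.8% of all tested genes. MAPK3, encoding ERK1, fell by 0.55 and 0.53 on the log2 scale in WT and KO (limma adjusted p = 0.00425 and 0.00535). SOS2, a RAS exchange factor, fell by 0.41 and 0.51 (adjusted p = 7.87e-05 and 6.43e-06). After rescaling, more of these 22 genes were called higher than lower (7 and 4 in WT, 9 and 5 in KO), so the direction of this group flips with the scaling.

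Of the transcripts known to rise on EGFR-ERK signalling, 13 of 14 tested were called at 12 h in each genotype, 5 of them higher and 8 lower. This share of 92.9% stood beside 44.9% and 48.8% of all tested genes. EGR1, an immediate early transcription factor, fell from 152 ± 8.5 to 72.3 ± 7.7 RPKM in WT and from 164 ± 19 to 83.2 ± 7.6 in KO (SD, n = 3, limma adjusted p = 1.00e-07 and 2.52e-07). ETV4 and ETV5, ETS factors downstream of ERK, fell together: ETV4 by 0.75 in WT and 0.69 in KO (adjusted p = 6.29e-07 and 1.37e-06), and ETV5 by 0.57 in WT and 0.70 in KO (adjusted p = 0.00187 and 2.77e-04). PLAUR, the urokinase receptor, rose from 14.1 ± 1.0 to 33.9 ± 1.5 RPKM in WT and from 12.4 ± 0.21 to 29.8 ± 1.1 in KO (adjusted p = 5.35e-10 and 5.26e-10). The 5 higher include CXCL8, encoding interleukin-8, which was at or under 0.75 RPKM in every untreated library and passed the filter on low values through the libraries treated with interferon. Its mean was 0.483 and 1.80 RPKM in untreated and 12 h WT, and 0.573 and 2.48 RPKM in KO, given as a description. The filter thus favoured a rise of CXCL8, and the share of 92.9% and the pathway counts at 12 h include this gene. IL1B fell by 0.36 in WT and 0.84 in KO (adjusted p = 4.26e-04 and 6.18e-08), and the interaction of -0.48 was not called (adjusted p = 0.0850). IL1B was higher in KO by 0.31 in untreated cells (adjusted p = 0.0110) and by 0.25 at 48 h (adjusted p = 0.0447). The untreated IL1B call was lost without WT or KO untreated replicate 3 (adjusted p 0.0512 and 0.0612), and the 48 h call without any 1 of 12 libraries (adjusted p up to 0.185), after median-of-ratios scaling (adjusted p = 0.0611) and without the filter on low values (adjusted p = 0.0510).

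CCND1, encoding cyclin D1, was lower in KO at each time. It falls outside the rule for named genes and was chosen after its values were seen. Its level was 44.6 ± 0.77, 51.4 ± 2.3 and 56.9 ± 2.1 RPKM in the WT groups and 38.8 ± 1.8, 44.3 ± 1.4 and 49.5 ± 1.7 in KO (SD, n = 3). Its log2 differences of -0.19, -0.21 and -0.20 were called (adjusted p = 0.0199, 0.0148 and 0.0184), and each was lost without any of 2 to 4 single libraries of its comparison (adjusted p 0.0549 to 0.107). With only the libraries of the comparison in the fit, the 10 genotype calls named here for pathway genes were lost (adjusted p 0.0610 to 0.147).

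The identity of the cells and the libraries was checked once. The 7 basal keratinocyte markers summed to 15276 to 15970 RPKM in untreated WT, 14504 to 14969 at 12 h and 15774 to 16473 at 48 h, and in KO to 14563 to 15450, 13531 to 15304 and 15321 to 16277. The calls at 12 h were 3 higher with 1 lower for WT and 4 higher with 1 lower for KO. These were 57.1% and 71.4% of the 7, beside 44.9% and 48.8% of all tested genes. KRT5, the most abundant of them, was lower, while ITGA6, COL17A1 and LAMB3 were higher in both genotypes. After median-of-ratios scaling 4 were higher and 0 lower in each genotype, so the lower call of KRT5 depends on the scaling. Of 11 differentiation markers 9 had values, and their sum moved with the 12 h group: 164 to 186 RPKM in untreated WT, 207 to 220 at 12 h and 155 to 173 at 48 h, and in KO 146 to 165, 178 to 228 and 166 to 188. Among these markers 6 were higher and 1 lower at 12 h in each genotype. That was 77.8% of the 9 with values, beside the 44.9% (WT) and 48.8% (KO) of all tested genes. Median-of-ratios scaling kept the 6 higher calls for both genotypes and the 1 lower call for KO cells, while WT cells had 0 lower. The sum was carried mostly by SPRR1B, a cornified envelope precursor (100.5 to 125.5 RPKM in WT), while KRT10, an early differentiation keratin, was lower (11.4 to 9.18 RPKM). The part of these marker shifts in the 12 h changes of the receptors and ligands was not tested. Fibroblast markers summed to 1.74 to 4.68 RPKM (3 of 9 with values), and the melanocyte list to 0.37 to 1.57 RPKM (1 of 6, PMEL). Of the leukocyte list 1 of 4 had values, CD68, which also occurs outside leukocytes, and its level was 14.4 to 19.97 RPKM in untreated libraries and 43.3 to 56.7 RPKM at 12 h. None of the 3 endothelial markers had values. Relative depth, estimated from the steps of low values of 2049 genes, differed by 1.48-fold between the deepest and shallowest library.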

How the data were processed

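PolyA RNA of 18 libraries was measured with a stranded kit, per the labels' protocols. The authors deposited 1 table of RPKM values for 16472 Ensembl gene IDs, already normalized for length and depth. Per the submitters' processing notes the build was hg19 and the tools included cutadapt, STAR 2.6.1, RSEM 1.3.0 and limma 3.50.3. Their roles, the annotation, the strand setting of the counting and the treatment of mouse feeder reads are not given in the sources used here, so reads of overlapping genes (EGFR-AS1 at EGFR, MIEN1 at ERBB2, LOC105377276 at EPGN and EREG, and LOC107985895, LOC124907824 and TGFA-IT1 at TGFA) cannot be told apart from theirs. No counts were given, so no count model was used. Symbols came from GENCODE and RefSeq tables, for 14576 of the IDs.

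Values were tested as log2(RPKM + 1) with limma 3.58.1 in R 4.3.3, in genes with at least 1 RPKM in at least 3 libraries (13280), with 1 mean per group over all 18 libraries, a mean trend in the variances and Benjamini-Hochberg adjustment within each of 11 comparisons. The script was tested on simulated data. All 9 members are named. Pathway genes are named where called at 12 h of interferon with a log2 change of at least 0.5, or called between genotypes, at most 6 per role, and 3 most alike genes per tested member by Pearson's r. The results of 2 pathway genes are not reported here. Members and lists were chosen with earlier results of these data known. Within groups, libraries correlated at r of 0.985 to 0.989. Alternatives were a pseudocount of 0.1, no filter, a mean of at least 5 RPKM, median-of-ratios scaling, only the compared libraries, no variance trend, a replicate block and leaving out each library.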

Additional observations from a re-analysis of the deposited data

Results flagged for a closer look

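ERBB3 was flagged at 48 h because every KO library lay above the untreated KO mean and every WT library below the untreated WT mean. Some of these gaps were very small: WT libraries of 6.02 and 6.01 RPKM lay under an untreated mean of 6.027 RPKM. The 48 h and untreated ranges overlapped in both genotypes. The KO change minus the WT change was 0.753 RPKM. The interaction was not called (log2 difference 0.15, 95% interval -0.25 to 0.55, limma adjusted p = 0.937).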

How the results depend on the processing

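Of 88 differences of the 8 tested genes, 33 were called, and 21 of these were called in every alternative that could be run, up to 25 each. No called difference changed direction. The 12 h calls of EGFR, ERBB2, AREG, HBEGF, TGFA and EPGN in both genotypes were among the 21. Fitting only the libraries of a comparison lost 9 calls and gained 1, the most of any setting. It called 0, 1 and 1 of the 8 members between genotypes in untreated cells, at 12 h and at 48 h, beside 3, 3 and 2, and 0, 0 and 1 of the pathway genes, beside 3, 3 and 6. The share of all tested genes called in that fit was not counted, so a loss particular to these genes cannot be told from one across the table. Members called at 48 h in WT numbered 1 in place of 2 with a pseudocount of 0.1, with median-of-ratios scaling and with only the compared libraries, as HBEGF was lost.

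Median-of-ratios scaling turned 4 uncalled differences: EREG from 12 h to 48 h in WT (-0.024, from 0.036), TGFA from 12 h to 48 h in KO (-0.088, from 0.0020), TGFA between untreated genotypes (-0.012, from 0.0082) and the HBEGF interaction at 12 h (0.0011, from -0.010).

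Leaving out 1 library at a time gave 1 to 2 members called at 48 h in WT, 2 to 5 at 48 h in KO, and 1 to 3 between genotypes both in untreated cells and at 12 h. For pathway genes it gave 8 to 15 and 9 to 17 at 48 h in WT and KO, and 0 to 5, 0 to 4 and 2 to 6 between genotypes in untreated cells, at 12 h and at 48 h. Uncalled differences that changed sign ranged, for AREG at 48 h in KO, from -0.022 to 0.025. From 12 h to 48 h in WT the ranges were -0.019 to 0.14 for ERBB3, -0.017 to 0.064 for EREG and -0.11 to 0.015 for TGFA, and in KO -0.031 to 0.028 for EREG and -0.063 to 0.057 for TGFA. Between untreated genotypes they were -0.17 to 0.18 for HBEGF and -0.016 to 0.054 for TGFA. Between genotypes at 12 h they were -0.16 to 0.14 for ERBB3, -0.17 to 0.094 for HBEGF and -0.041 to 0.079 for TGFA, and at 48 h -0.041 to 0.025 for ERBB2 and -0.058 to 0.096 for HBEGF. For the interaction at 12 h they were -0.044 to 0.011 for EGFR, -0.060 to 0.065 for ERBB2, -0.25 to 0.054 for ERBB3, -0.24 to 0.14 for HBEGF and -0.049 to 0.071 for TGFA, and at 48 h -0.16 to 0.20 for HBEGF, -0.0071 to 0.12 for TGFA and -0.081 to 0.28 for EPGN. The cause of these shifts was not tested.

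Replicate numbers are shared across the groups but did not pair libraries. Of 45 pairs of same-numbered libraries, 2 correlated above 0.1 in their deviations from the group means (r of -0.097 to 0.157, median -0.013), and 2 of the 18 libraries correlated best with their own number. With a replicate block the HBEGF difference of -0.47 at 48 h in KO and that of 0.30 from 12 h to 48 h in KO were called (adjusted p = 0.00791 and 0.0286), and that of EGFR between genotypes at 12 h was not (0.16, adjusted p = 0.0686), nor was that of IL1B between genotypes at 48 h (0.25, adjusted p = 0.0601). The summed RPKM of AREG and its copy AREGB was not run, since no table used here pairs the copy with an ID. No counts were used, so depth limits the low genes, BTC and EREG, to an unknown degree.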
